A study of Mus musculus with 7 samples.

Results

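The cortical layer transcription factors described here are 8 genes taken by function, and their members are all probes that the array annotation assigns to them. Cux1, Cux2 and Rorb were counted as upper-layer factors, and Bcl11b, Fezf2, Tbr1, Foxp2 and Etv1 as deep-layer factors. They are 8 of the 16593 genes with a symbol on the array and hold 19 of its 25697 probes, 10 for the upper-layer and 9 for the deep-layer genes. Brain RNA came from 7 male C57BL/6J mice of 21 weeks, 1 Illumina array for each mouse. The knockout group held 3 mice homozygous for a knockout of Duf1220, a protein domain that the mouse encodes in Pde4dip, and the wild-type group held 4 wild-type mice, so the comparison asks whether these transcripts differ in the brain when the domain is knocked out. The labels do not say how the allele was made, and they give no brain region, so the RNA is taken as whole-brain tissue in which fewer cells of a type and less RNA per cell cannot be told apart.

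In the developing cerebral cortex the neurons of each layer are set apart by transcription factors that promote their own layer's fate and repress others. Fezf2 drives the fate of neurons that project below the cortex and acts through Bcl11b, Tbr1 specifies corticothalamic neurons and represses Fezf2 and Bcl11b, and the Cux genes mark callosal neurons of the upper layers. In the adult brain several of these genes are also used outside the cortex, Bcl11b and Foxp2 in striatal neurons, Foxp2 and Rorb in the thalamus and Foxp2 in Purkinje cells, so a whole-brain level is not a cortical level alone.

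The 250 bases before the transcription start are shown for Rorb and Etv1, an upper-layer and a deep-layer gene whose probes all read highest on wild-type array 2. They are the members for which this window lay outside the whole span of the gene. The sequences are from RefSeq, build GRCm38.p6. Rorb is at chr19:19111197-19111446 on the minus strand and Etv1 at chr12:38779832-38780081 on the plus strand, both read 5′ to 3′ on the strand of the gene. Capitals mark matches on either strand to 5 short motifs, none of which overlaps another: the TATA-box letters TATAA, the box named CCAAT, the letters GGGCGG bound by Sp factors, the letters TAATTA bound by many homeodomain proteins and the T-box letters AGGTGT.
Rorb: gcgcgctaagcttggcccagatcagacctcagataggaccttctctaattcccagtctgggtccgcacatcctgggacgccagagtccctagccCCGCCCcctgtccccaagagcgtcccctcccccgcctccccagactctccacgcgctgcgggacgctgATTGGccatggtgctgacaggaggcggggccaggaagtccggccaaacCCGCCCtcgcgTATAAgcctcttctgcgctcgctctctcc
Etv1: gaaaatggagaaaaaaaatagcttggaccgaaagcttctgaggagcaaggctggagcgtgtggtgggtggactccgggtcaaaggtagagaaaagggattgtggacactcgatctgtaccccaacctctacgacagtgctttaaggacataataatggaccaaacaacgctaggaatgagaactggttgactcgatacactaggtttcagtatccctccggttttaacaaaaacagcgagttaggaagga
The Rorb window held a TATAA match that began 29 bases before the start, 1 CCAAT match and 2 GGGCGG matches, and its GC content was 66.0%. The Etv1 window held no match to any of these letters and had a GC content of 46.4%. Windows of the same length before 27025 mouse genes held TATAA in 23.5%, the box CCAAT in 34.5%, the letters GGGCGG in 32.9%, the letters TAATTA in 4.90% and the letters AGGTGT in 11.99%. Of the 7 members with a window, 1 held TATAA, 1 held CCAAT, 3 held GGGCGG, 1 held TAATTA (Tbr1, with 2 matches) and 0 held AGGTGT.

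Intensities are the deposited normalized values, and values under 16 were set to 16 before log2 was taken. A probe was tested when it lay above 16 on at least 3 arrays, which 11 of the 19 member probes did, at least 1 for each of the 8 genes, against 12833 of all 25697 probes. Across the tested probes wild-type array 2 stood apart: its correlation with the rest averaged 0.932. For wild-type array 3 this average was 0.970, and for the remaining 5 it was 0.976 to 0.981. Differences of the members and of the listed genes are therefore also given without them where that moved the value by over 1.5 times.

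With limma, 0 of the 11 member probes passed an adjusted p of 0.05, and 0 passed at an unadjusted p under 0.05. Over all 12833 probes tested, 0.00% passed after adjustment and 4.20% passed without it. The knockout mean was higher for 4 member probes and lower for 7, against 53.1% higher and 46.9% lower over all probes. All knockout arrays lay above all wild-type arrays for 1 probe, that of Cux2, where 3.44% of all probes did so, and below them for 0, where 3.94% did so. The data thus gave no call for any layer factor, and the intervals below say how large a difference each probe leaves possible.

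**Figure D1:**
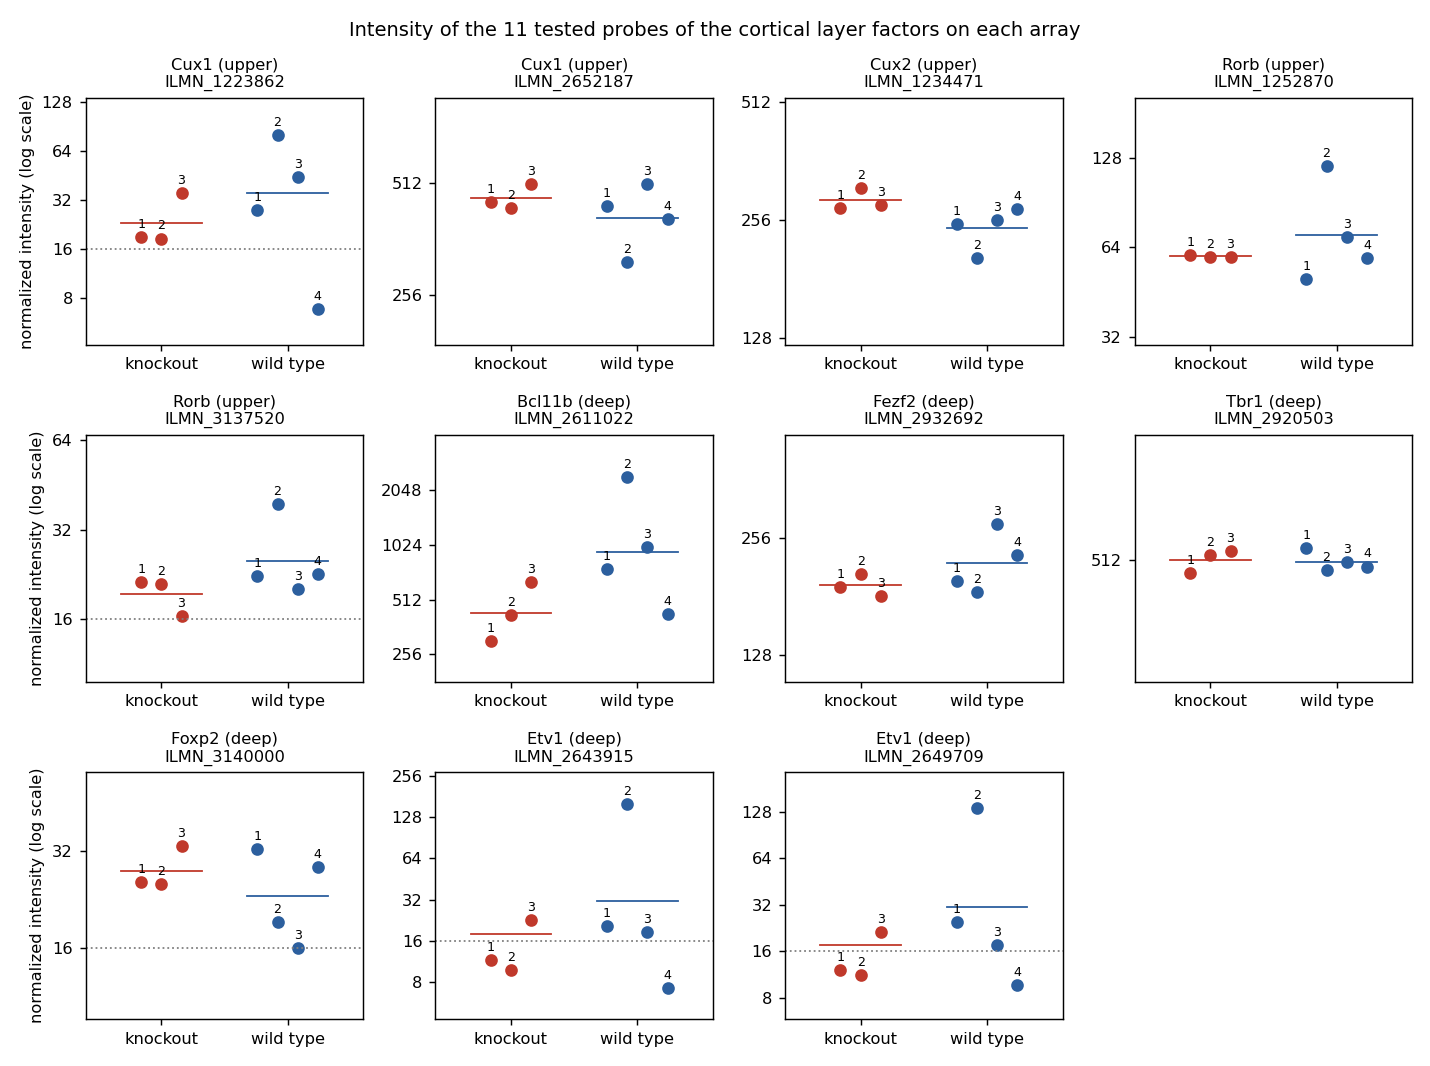
Normalized intensity (log scale, range set per panel) of each of the 11 tested probes on the 3 knockout arrays (red, left) and the 4 wild-type arrays (blue, right), with the replicate number above each point. Lines are group means of the log2 values floored at 16, and the dotted line marks 16. Wild-type array 2 is the highest point for Bcl11b, both Rorb probes, both Etv1 probes and the dim Cux1 probe, and the lowest for Cux2 and the bright Cux1 probe.

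Among the upper-layer factors, Cux2, a homeodomain protein of callosal neurons that promotes their dendrite branching, read 275, 309 and 279.5 on knockout arrays 1 to 3 at probe ILMN_1234471. The wild-type arrays read 249.6, 205, 256 and 274. Every knockout array was above every wild-type array, with wild-type array 4 just below knockout array 1 and wild-type array 2 the lowest of all. The means were 288 ± 18.2 (SD, n = 3) in knockout and 246 ± 29.0 (SD, n = 4) in wild type. The log2 difference was 0.23 (SE 0.15, 95% interval -0.12 to 0.59), with a limma adjusted p of 0.754 and an exact permutation p of 0.0571. Leaving out wild-type array 2 gave 0.15, and leaving out arrays 2 and 3 of this group gave 0.14. The 2 other Cux2 probes, annotated to the same transcript record, were at most 17.0 on any array and were not tested.

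Cux1, the homeodomain relative of Cux2, had 5 probes, of which 2 were tested and gave opposite signs. Its locus is known to give, beside the homeodomain factor, a Golgi membrane protein without the homeodomain, and which of these products each probe reads is not annotated here. The bright probe ILMN_2652187, annotated to NM_198602, read 455, 439 and 507 in knockout brains. In wild-type brains it read 443, 315, 506 and 408, so that the groups overlapped and wild-type array 2 was the lowest. The log2 difference was 0.18 (SE 0.19, 95% interval -0.25 to 0.61, limma adjusted p = 0.770). Leaving out wild-type array 2 gave 0.048, leaving out array 3 of this group gave 0.28, and leaving out both gave 0.13. With knockout array 3 left out it was 0.12.

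The dim probe ILMN_1223862, annotated to NM_009986, read 18.8, 18.5 and 35.3 in knockout brains, against 27.9, 80.0, 44.2 and 6.84 in wild-type brains. Here wild-type array 2 was the highest and wild-type array 4 lay under the floor. Its log2 difference was -0.62 (SE 0.51, 95% interval -1.78 to 0.54, limma adjusted p = 0.754). Leaving out wild-type array 2 gave -0.23, and leaving out arrays 2 and 3 of this group turned it to 0.13. With wild-type array 4 left out it was -1.001. On the log2 scale the deviation of wild-type array 2 from the mean of the other 6 arrays was -0.54 at the bright probe and 1.68 at the dim probe. Of the 3 remaining Cux1 probes, which were not tested, the highest reading was 24.9, on the same array.

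Rorb, a nuclear receptor of granular-layer neurons and of sensory thalamus, was nearly constant in the knockout group at probe ILMN_1252870. It read 60.2, 59.5 and 59.4 on the knockout arrays, against 50.2, 120.1, 69.4 and 58.9 on the wild-type arrays. The wild-type values lay on both sides of the knockout values, and wild-type array 2 stood 2.02-fold above the mean of the other 6. The log2 difference was -0.24 (SE 0.28, 95% interval -0.88 to 0.40, limma adjusted p = 0.786). It turned to 0.017 when wild-type array 2 was left out and to 0.13 when array 3 was left out as well, and it was -0.40 with wild-type array 1 left out. The other Rorb probe, ILMN_3137520, annotated to another transcript, read 21.4, 21.0 and 16.5 in knockout brains and 22.4, 39.1, 20.2 and 22.7 in wild-type brains. Its log2 difference was -0.37 (SE 0.25, limma adjusted p = 0.754) with all arrays, -0.16 with wild-type array 2 left out and -0.21 with array 3 left out as well.

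Among the deep-layer factors, Bcl11b, a zinc-finger protein needed for corticospinal axons and for striatal projection neurons, had the largest difference of the 11 tested probes. Probe ILMN_2611022 read 302, 419.5 and 641 on the knockout arrays. The wild-type arrays read 754, 2407, 988 and 427. Wild-type arrays 1, 2 and 3 were above all knockout arrays, while wild-type array 4 lay among the knockout values. The means were 454 ± 172 (SD, n = 3) in knockout and 1144 ± 873 (SD, n = 4) in wild type. On the log2 scale the knockout group was 1.11 lower (difference -1.11, SE 0.53, 95% interval -2.32 to 0.10), which is 2.16-fold, with a limma adjusted p of 0.754, an unadjusted p of 0.0674 and an exact permutation p of 0.143. The difference was -0.66 without wild-type array 2 and -0.39 without wild-type arrays 2 and 3. Of all tested probes, 6.34% had an unadjusted p as small as that of Bcl11b.

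Striatal projection neurons hold much Bcl11b, and the striatal marker list had 12 tested genes of 15 on the array. Its score, the mean log2 deviation from each gene's mean over the 7 arrays, lay between -0.08 and 0.05 in knockout and between -0.06 and 0.12 in wild type, highest on wild-type array 2. Of these genes 5 had a higher and 7 a lower knockout mean, and the median difference was -0.04. Ppp1r1b, a dopamine-regulated phosphatase inhibitor, differed by -0.39 (SE 0.13, limma adjusted p = 0.754). All its knockout arrays lay below all wild-type arrays, where 3.94% of all tested probes did so. It was the 1 of 12 with an unadjusted limma p under 0.05, where 4.20% of all tested probes were. Scn4b, a sodium channel subunit, differed by 0.45 (SE 0.27). Without wild-type arrays 2 and 3 the Ppp1r1b difference was -0.31 and the Scn4b difference 0.049, and 10 of the 12 genes had a higher knockout mean with a median of 0.0078. The part of striatal tissue in the Bcl11b values was not tested.

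Etv1, an ETS factor of subcortically projecting neurons, read close to the floor except on wild-type array 2. Probe ILMN_2643915 gave 11.6, 9.90 and 22.6 in knockout brains and 20.5, 159.6, 18.5 and 7.22 in wild-type brains. Probe ILMN_2649709 gave 12.1, 11.3 and 21.4 in knockout brains and 24.6, 136, 17.5 and 9.73 in wild-type brains. Both probes thus had 1 of 3 knockout arrays and 3 of 4 wild-type arrays above 16, and both put wild-type array 2 far above the rest. Taken from log2 values floored at 16, it was 8.82-fold and 7.41-fold over the mean of the other 6. The log2 differences were -0.81 (SE 0.73, 95% interval -2.48 to 0.87, limma adjusted p = 0.755) and -0.82 (SE 0.67, 95% interval -2.36 to 0.72, limma adjusted p = 0.754). Without wild-type array 2 they were -0.025 and -0.11, so both differences rest on that array.

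Fezf2, the zinc-finger selector of subcortical projection neurons, read 192, 207 and 182 in knockout brains and 198, 185, 278 and 232 in wild-type brains at probe ILMN_2932692. The groups overlapped, and here wild-type array 3, not array 2, was the highest. The log2 difference was -0.19 (SE 0.18, 95% interval -0.60 to 0.21, limma adjusted p = 0.755). Leaving out wild-type array 3 gave -0.080, leaving out array 2 of this group gave -0.27, and leaving out both gave -0.15.

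Tbr1, the T-box factor of corticothalamic neurons, was the steadiest of the 8 genes at probe ILMN_2920503. It read 483, 526 and 535 in knockout brains and 542, 489, 509 and 497 in wild-type brains, with means of 515 ± 27.9 (SD, n = 3) and 509 ± 23.4 (SD, n = 4). Its log2 difference was 0.01 (SE 0.13, 95% interval -0.29 to 0.32, limma adjusted p = 0.977), and its sign turned when arrays were left out. On wild-type array 2, where Bcl11b was 4.43-fold above the mean of the other 6 arrays by log2 values, Tbr1 was 1.05-fold below it.

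Foxp2, a forkhead repressor of corticothalamic, striatal and Purkinje neurons, had 4 probes and 1 tested. Probe ILMN_3140000, annotated to NM_053242, read 25.6, 25.2 and 33.1 in knockout brains and 32.4, 19.3, 16.01 and 28.5 in wild-type brains. The knockout values lay within the wild-type range except that of knockout array 3, and wild-type arrays 2 and 3 were the lowest. The log2 difference was 0.26 (SE 0.26, 95% interval -0.34 to 0.87, limma adjusted p = 0.765). Leaving out knockout array 3 gave 0.14, leaving out wild-type array 3 gave 0.086 and leaving out wild-type array 1 gave 0.43. With wild-type arrays 2 and 3 both left out it turned to -0.13. The other 3 probes, annotated to NM_212435, passed 16 at most on wild-type array 2, with readings of 25.5, 17.8 and 3.68 there, and were not tested.

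**Figure D2:**
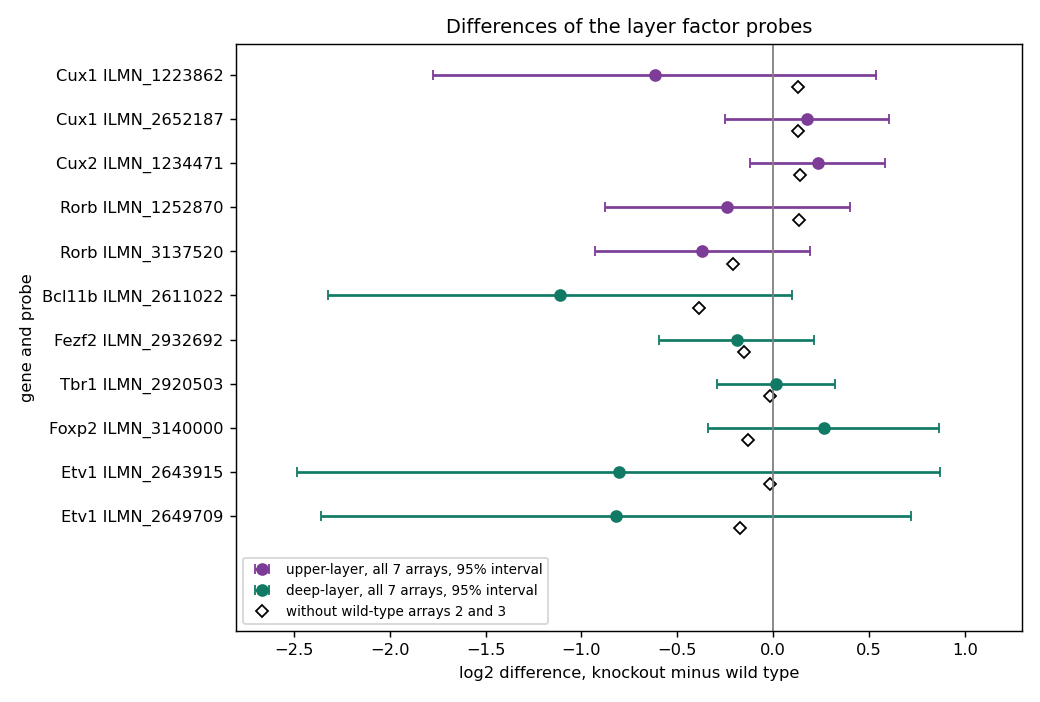
Log2 difference, knockout minus wild type, of each tested probe with its 95% limma interval (filled points: purple upper-layer, green deep-layer) and the difference without wild-type arrays 2 and 3 (open diamonds). All 11 intervals contain 0, and the Bcl11b and Etv1 differences are -1.11, -0.81 and -0.82 with all arrays and -0.39, -0.015 and -0.17 without those 2.

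Upper-layer and deep-layer factors were compared through a score for each array, the mean deviation of a gene group from the gene means, with each gene given by its probe of highest mean signal. No test was made of these scores. The upper-layer score was 0.0041, 0.036 and 0.057 on the knockout arrays and -0.14, 0.018, 0.088 and -0.061 on the wild-type arrays, so the groups overlapped within a narrow range. On wild-type array 2 this score averaged opposite deviations, 0.87 for Rorb, -0.46 for Cux1 and -0.35 for Cux2. The deep-layer score was -0.39, -0.25 and 0.015 on the knockout arrays and 0.057, 0.79, -0.019 and -0.20 on the wild-type arrays. It was highest on wild-type array 2 by a wide margin, carried by Etv1 (2.69) and Bcl11b (1.84). Fezf2 (-0.17), Tbr1 (-0.06) and Foxp2 (-0.37) were below their means there. Upper minus deep was 0.39, 0.29 and 0.042 in knockout and -0.20, -0.77, 0.11 and 0.13 in wild type, or 0.24 ± 0.18 (SD, n = 3) and -0.18 ± 0.42 (SD, n = 4). Its group difference of 0.42 was 0.23 without wild-type array 2 and 0.27 without wild-type arrays 2 and 3. With all arrays and the mean over a gene's tested probes in place of the probe of highest signal, it was also 0.27. With all arrays, 2 of 3 upper-layer genes and 2 of 5 deep-layer genes had a higher knockout mean. The median difference was 0.18 for the upper-layer and -0.19 for the deep-layer genes, beside 0.02 over all tested probes, where the median size of a difference was 0.19. With wild-type array 2 left out these medians were 0.048 for the upper-layer and -0.025 for the deep-layer genes, and with array 3 left out as well they were 0.13 and -0.13. The upper-layer median of 0.18 with all arrays was the difference of the bright Cux1 probe. The dim Cux1 probe was at -0.62, so the upper-layer count and median depend on which probe stands for Cux1.

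**Figure D3:**
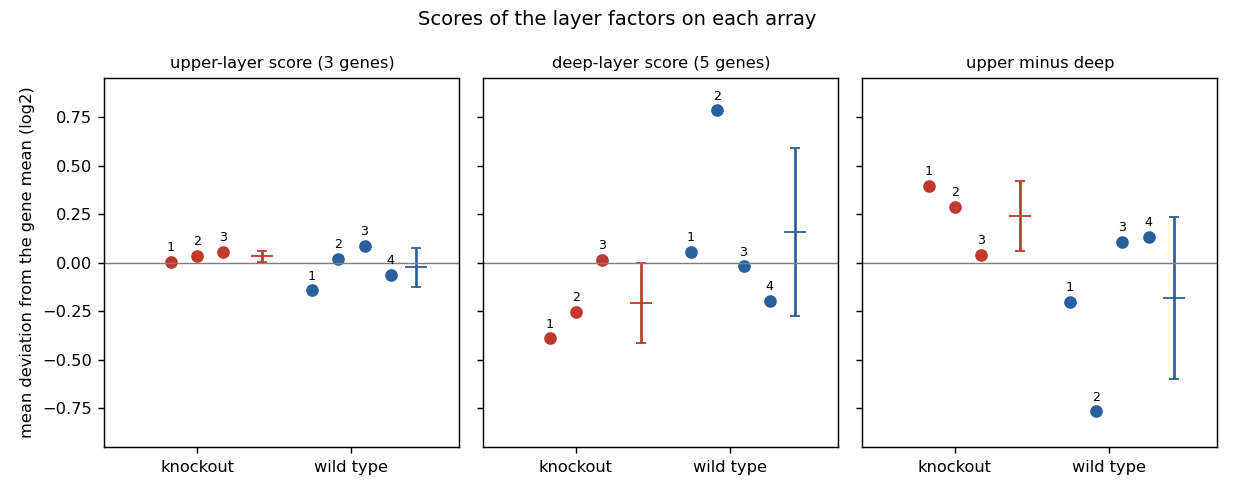
Upper-layer score, deep-layer score and their difference on each array (log2), knockout left in red and wild type right in blue, with the replicate number above each point and the group mean ± SD beside the points. The deep-layer score of wild-type array 2, 0.79, lies above all others, and the groups overlap in every panel.

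The 2 gene groups were not uniform, and the factors that varied most came from both. On wild-type array 2 the log2 deviation from the mean of the other 6 arrays was 3.14 for Etv1 (ILMN_2643915), 2.15 for Bcl11b and 1.02 for Rorb. On the same array it was -0.08 for Tbr1, -0.20 for Fezf2, -0.41 for Cux2, -0.44 for Foxp2 and -0.54 for the bright Cux1 probe. Of the 11 tested probes 6 were highest there, where 30.0% of all probes were, and 2 were lowest, where 36.2% were. At least 1 log2 unit above the mean of the others were 5 of 11, where 8.02% of all probes were. Some of these probes share a gene. Within the knockout group Bcl11b, Etv1 and the dim Cux1 probe were all highest on knockout array 3.

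**Figure D4:**
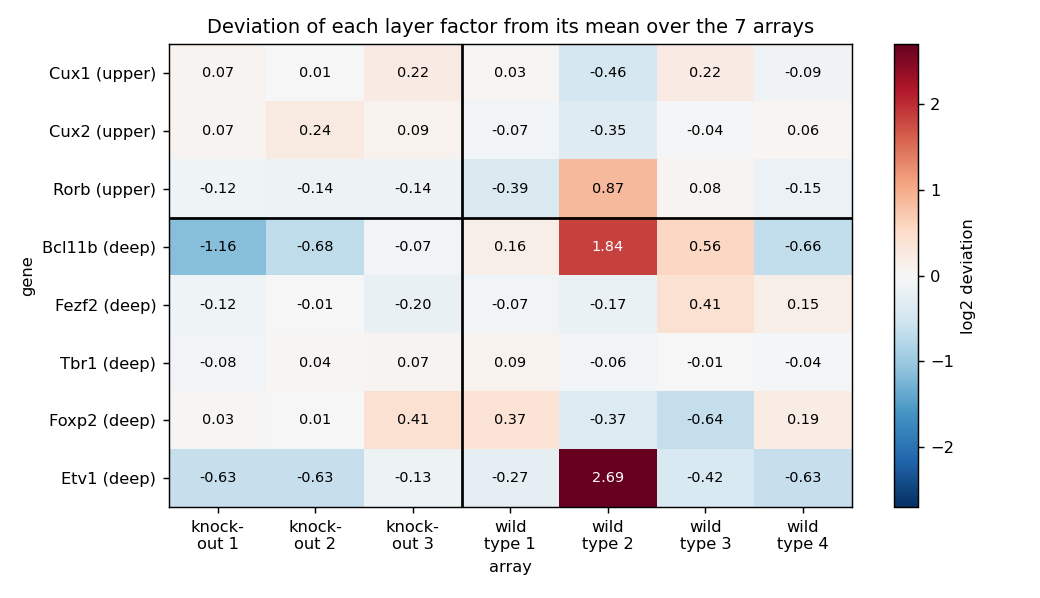
Log2 deviation of each gene from its mean over the 7 arrays, at its probe of highest mean signal, with upper-layer genes above and deep-layer genes below the line, and knockout arrays left and wild-type arrays right of it. Wild-type array 2 stands out for Etv1 (2.69), Bcl11b (1.84) and Rorb (0.87), while Tbr1 stays between -0.08 and 0.09 on every array.

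Over the 7 arrays, 28 pairs of the 8 genes were correlated, and 0 passed an adjusted permutation p of 0.05 by Pearson's r or Spearman's rho. By Pearson's r the smallest p was that of Bcl11b and Etv1, with r = 0.87 (exact permutation p = 0.0107, adjusted 0.200) and rho = 0.82 (exact permutation p = 0.0381, adjusted 0.448). Without the 2 arrays farthest from the median of Bcl11b, which were wild-type array 2 and knockout array 1, r was 0.61. Cux2 and Bcl11b ran opposite, with r = -0.88 (exact permutation p = 0.0143, adjusted 0.200) and rho = -0.79 (exact permutation p = 0.0480, adjusted 0.448), and r was -0.68 without wild-type array 2 and knockout array 2. By Spearman's rho the smallest p was that of Rorb and Foxp2, with rho = -0.82 (exact permutation p = 0.0341, adjusted 0.448) and r = -0.65 (exact permutation p = 0.104, adjusted 0.367), and r was -0.93 without wild-type arrays 2 and 1. For Rorb and Etv1, r was 0.92 with all arrays and -0.25 without wild-type array 2, so that relation rested on that array.

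The genes whose pattern over the 7 arrays was most like the deep-layer score, among 9071 ranked genes, were Npc2, Maf1, Zcchc17, Rlim and Nop58, with Pearson's r of 0.997, 0.994, 0.993, 0.992 and 0.992. All of them were above the other arrays on wild-type array 2, by 0.43 to 1.24. Most like the upper-layer score were Caml, Gpr19, Kcns1, Kbtbd4 and Plod1, with r of 0.942, 0.938, 0.921, 0.911 and 0.873. These are descriptions over 7 arrays that share wild-type array 2.

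Further layer genes, listed by their known layer, were read beside the members. Of 19 tested deep-layer genes 5 had a higher and 14 a lower knockout mean, with a median of -0.20, and 0 passed with limma either after adjustment or at an unadjusted p under 0.05. Sox5, which controls the timing of deep-layer neurons and represses Fezf2 in early development, read 124, 137 and 246 in knockout brains, against 310.1, 1427, 487 and 135 in wild-type brains. Its order on the wild-type arrays was that of Bcl11b, and its log2 difference was -1.36 (SE 0.69, limma adjusted p = 0.754), -0.76 with wild-type array 2 left out and -0.35 with array 3 left out as well. Foxp1, a relative of Foxp2, differed by -0.53 (SE 0.32), and by -0.029 without wild-type arrays 2 and 3. Hspb3, a small heat-shock protein, differed by 0.29 (SE 0.15), and Rprm, a marker of corticothalamic neurons, by 0.30 (SE 0.31), which was 0.019 with wild-type array 2 left out and -0.16 with array 3 left out as well. Of the 19 genes, 14 were higher on wild-type array 2 than on the mean of the others, and without that array the median difference was -0.07.

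Of 11 tested upper-layer genes 7 had a higher and 4 a lower knockout mean, with a median of 0.17 that was 0.029 without wild-type array 2. Among these 0 passed with limma, also at an unadjusted p under 0.05. Mef2c, a MADS-box factor of cortical neurons, read 382, 446 and 957 in knockout brains and 760.1, 3047, 783 and 389 in wild-type brains, a log2 difference of -0.75 (SE 0.64) that was -0.17 with wild-type array 2 left out and 0.0070 with array 3 left out as well. Pou3f1, a POU factor, differed by -0.48 (SE 0.34), Otof, which encodes the vesicle protein otoferlin, by 0.71 (SE 0.51) and Mdga1, a cell-surface protein of upper-layer neurons, by 0.28 (SE 0.17). With wild-type array 2 left out, these differences were -0.17 for Pou3f1, 0.18 for Otof and 0.22 for Mdga1, and with array 3 left out as well they were 0.044, 0.21 and 0.083. Against the mean of the other arrays, wild-type array 2 stood at 2.40 for Mef2c and at -2.19 for Otof, so genes of the same layer lay in opposite directions there.

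Of 20 tested partners and targets of the members 7 had a higher and 13 a lower knockout mean, with a median of -0.07 that was 0.02 without wild-type array 2. At an unadjusted p under 0.05 with limma 1 of the 20 stood, where 4.20% of all tested probes did. This gene was Slc17a7, the vesicular glutamate transporter of cortical neurons. It read 3454, 3432 and 4099 in knockout brains and 6010.4, 4042, 6913 and 6130.1 in wild-type brains, a log2 difference of -0.63 (SE 0.21, limma adjusted p = 0.754), with wild-type array 2 just inside the knockout range, and -0.80 without that array. Hdac2, a histone deacetylase, differed by 0.17 (SE 0.17), and Cntnap2, known in human cells as a target of FOXP2, by 0.15 (SE 0.16). Without wild-type arrays 2 and 3 they differed by -0.0012 and 0.023. In the family list, which also holds Tbr1, Etv4 differed by 0.48 (SE 0.33), Etv5 by 0.17 (SE 0.20) and Rora by -0.50 (SE 0.28), and the median over 4 tested genes was 0.09. Leaving out wild-type array 2 gave 0.16 for Etv4, 0.033 for Etv5, -0.29 for Rora and 0.014 for the median, and with array 3 left out as well the Rora difference was -0.062. Etv4 read 109 to 115 in knockout and 40.7 to 108 in wild type, with its lowest value on wild-type array 2, where Etv1 had its highest. General markers of cortical projection neurons, a list that includes Tbr1, had 6 tested genes of 8 on the array, and Neurod6 was under the floor on every array. Of the 6, 5 were higher in knockout and the median difference was 0.10, with Slc17a7 lower and Camk2a at 0.24 (SE 0.23). Without wild-type array 2 this median was 0.026 and the Camk2a difference 0.056.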

How the data were processed

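Total brain RNA, biotin-labelled as cRNA, was measured on Illumina BeadArrays. The deposited values are normalized intensities on a linear scale, made with GenomeStudio 2011.1, per the submitters' processing notes. Negative values and nearly equal quantiles show background subtraction and normalization by the authors, and how this was done is not stated in the sources. Another deposited table has 14 columns whose names match no label and was not used here. Genes were named from the platform annotation. Each array was 1 replicate, and nothing was pooled. The number of arrays limits the precision: log2 differences had a median standard error of 0.21. Intensities were floored at 16, log2-transformed and passed to lmFit and eBayes of limma 3.58.1 (R 4.3.3) with no term beside the group, with Benjamini-Hochberg adjustment over 12833 probes and a threshold of 0.05. Differences near the floor depend on it, in either direction. With a floor of 8 in place of 16, the dim Cux1 difference was -0.37 in place of -0.62. That of Etv1 ILMN_2643915 was -0.94 in place of -0.81. Permutation tests were exact and two-sided over 35 splits, with a smallest possible p of 0.0286. Of the 22 gene lists, none was tested as a set. The fit was tested in 5 simulated runs with 200 probes changed by 2 log2 units, more than any member difference. Of these 89.6% passed, with 8.8 false calls per run. The simulated noise was independent for each probe and array, so it held no shift of a whole array such as that of wild-type array 2. Members and lists were chosen with earlier results of these data known. Named genes were all member probes, up to 2 genes per direction and list by unadjusted p, and the 5 genes most correlated with each score. Alternatives changed the floor, filter, normalization, variance model, weights, covariates, probe choice and arrays. Figures were drawn with matplotlib 3.10.9.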

Additional observations from a re-analysis of the deposited data

Results flagged for a closer look

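Etv1 at probe ILMN_2643915 read 159.6 on wild-type array 2, against 20.5, 18.5 and 7.22 on the other wild-type arrays. On log2 values floored at 16, the gap to the next wild-type array took 0.891 of the range of the group, more than Dixon's 95% limit for 4 samples. The reading of 7.22 was raised to 16 for this, which narrows the range, so the flag depends on the floor. The other Etv1 probe, ILMN_2649709, did not pass the limit. The knockout group of 3 was not examined in this way. Chance alone marks about 1 in 20 groups of this kind, and the wild-type values of all 11 tested probes and of the scores were examined.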

How the results depend on the processing

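With limma, 0 probes passed over the whole array and 0 member probes passed under every alternative except array weights and a residual component. Array weights gave 28 probes over the array and 0 members. The weight was 6.71 for wild-type array 1 and 0.10, 0.34 and 0.86 for wild-type arrays 2, 3 and 4. The wild-type mean under array weights therefore rests mainly on wild-type array 1. With the leading residual component in the model, 273 probes passed over the array, and 2 of them were members, Bcl11b at -1.11 (adjusted p = 0.0476) and Etv1 ILMN_2643915 at -0.81 (adjusted p = 0.0466). Over all alternatives the limma adjusted p ranged from 0.0476 to 1.00 for Bcl11b and from 0.0466 to 1.00 for this Etv1 probe. The component weighs mainly wild-type array 2, at 0.84. It was taken from the residuals of the same fit, so it left the differences as they were and lowered only the residual spread. The adjusted p-values under this component are therefore too small to count as calls. With wild-type array 2 left out instead, Bcl11b was at -0.66 (limma adjusted p = 0.794) and this Etv1 probe at -0.025 (limma adjusted p = 0.967). Under array weights the sign turned to 0.19 for Rorb ILMN_1252870, -0.055 for Tbr1 and -0.19 for Foxp2. Without wild-type arrays 2 and 3 it turned to 0.13 for Cux1 ILMN_1223862, 0.13 for Rorb ILMN_1252870, -0.015 for Tbr1 and -0.13 for Foxp2. The cause was not tested. With 1 array left out, Tbr1 ranged from -0.014 to 0.060, Rorb ILMN_1252870 from -0.40 to 0.017 and Bcl11b from -1.49 to -0.66. The upper-minus-deep difference of 0.42 ranged from 0.23 to 0.53, and was 0.27 with the mean over a gene's probes. The count of lists with a median above 0, 14 of 22, lay between 10 and 15. Samples with the same replicate number deviated together little, with correlations of 0.080, -0.13 and -0.037, so the numbers were not taken as pairs. With the replicate block 0 probes and 0 members passed, and the Bcl11b difference was -1.49; wild-type array 4 has no knockout partner and carries no weight in that fit. The scores have no value without the filter or above the floor on all 7 arrays, since their probes were fixed. The Etv1, Foxp2 and dim Cux1 and Rorb readings lie near 16, and a floor of 32 brought the Foxp2 difference to 0.01.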

Other observations

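Regional and cell-type markers were read beside the layer factors, with 0 genes of any list passing after adjustment with limma. Each score below is the mean log2 deviation of a list on an array, and the part of tissue makeup in the layer factor values was not tested. Hippocampal genes had 3 of 9 tested genes higher and 6 lower in knockout (median -0.13), with scores of -0.21 to -0.06 in knockout and -0.03 to 0.34 in wild type, highest on wild-type array 2, where Bcl11b and Etv1 were also highest. This median was -0.086 with wild-type array 2 left out and -0.095 with array 3 left out as well. Of the 9 hippocampal genes 1 had an unadjusted limma p under 0.05, Spink8 at -1.17 (SE 0.30), where 4.20% of all tested probes did. Hypothalamic genes had 8 of 10 higher (median 0.35), with scores of 0.11 to 0.26 in knockout and -0.64 to 0.21 in wild type, lowest on wild-type array 2. Leaving out wild-type array 2 gave a median of 0.15, and leaving out arrays 2 and 3 of this group gave -0.062. Olfactory bulb genes had 11 of 13 higher (median 0.37), with scores of -0.05 to 0.34 in knockout and -0.36 to 0.27 in wild type. This median was 0.14 without wild-type arrays 2 and 3 and -0.015 with array weights. Thalamic genes, which bear on Rorb and Foxp2, had 7 of 11 higher (median 0.16), with scores of -0.03 to -0.00088 in knockout and -0.11 to 0.11 in wild type. This median was 0.055 with wild-type array 2 left out, -0.025 with array 3 left out as well and -0.015 with array weights. Of the 11 thalamic genes 2 had an unadjusted limma p under 0.05, where 4.20% of all tested probes did. They were lower in knockout, Ramp3 by -0.69 and Tnnt1 by -0.82, and by -0.45 and -0.61 without wild-type arrays 2 and 3. Zic4 and Slc17a6 differed by 0.51 and 0.43, and by 0.060 and 0.016 without those arrays. Cerebellar genes, which bear on Foxp2, had 7 of 10 higher (median 0.14), with scores of -0.08 to 0.23 in knockout and -0.11 to 0.01 in wild type. Svep1 and Gabra6 differed by 0.61 and 0.73, and Slc1a6 and Pcp2 by -0.44 and -0.34. Without wild-type arrays 2 and 3 the Pcp2 difference was -0.094. Of the 10 cerebellar genes 3 had an unadjusted limma p under 0.05, where 4.20% of all tested probes did. Brainstem genes had 7 of 9 higher (median 0.21), and interneuron genes 7 of 9 (median 0.13), with medians of 0.025 and 0.0075 without wild-type arrays 2 and 3.

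Among non-neuronal lists, astrocyte genes had 4 of 9 higher (median -0.11), oligodendrocyte genes 3 of 8 (median -0.04), microglial genes 4 of 8 (median 0.01) and endothelial genes 6 of 6 (median 0.18). Choroid plexus genes had 2 of 7 higher (median -0.07), blood genes 2 of 4 (median 0.15) and broadly used genes 5 of 9 (median 0.06). Of the 7 choroid plexus genes 2 had an unadjusted limma p under 0.05, where 4.20% of all tested probes did. These were Folr1 at -1.35 (SE 0.30) and Clic6 at -0.30 (SE 0.13). The blood genes were split, so that their median describes none of them. Hba-a1 and Alas2 differed by -0.58 and -1.07, and by -0.12 and -0.30 without wild-type arrays 2 and 3. S100a8 and S100a9 differed by 0.88 and 1.29, and by 0.81 and 1.24 without those arrays. Without wild-type arrays 2 and 3 the medians were -0.0091 for astrocyte, -0.075 for oligodendrocyte, -0.075 for microglial, 0.14 for endothelial, -0.22 for choroid plexus, 0.34 for blood and 0.022 for broadly used genes. On wild-type array 2 the score was 0.21 for astrocyte genes, -0.42 for microglial genes and 0.48 for blood genes, each outside the range of the other 6 arrays. Choroid plexus genes at 0.18 and endothelial genes at -0.15 were also outside it, by less. Oligodendrocyte genes at 0.005 and broadly used genes at -0.074 were inside it. Against the mean of the other 6, that array stood at 1.17 for Hba-a1 and 2.16 for Alas2, but at -0.60 for S100a8 and -0.49 for S100a9.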
